A study of Mus musculus with 46 samples.

Results

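A set of 10 immediate early and feedback genes was followed through liver injury and repair: the phosphatases Dusp1, Dusp6, Dusp8 and Dusp10, the stress sensors Gadd45b and Gadd45g, the immediate early genes Ier2, Ier3 and Ier5, and Zfp36, which encodes an mRNA decay factor. They were chosen by name, with earlier results of these data known. They are 10 of the 18193 genes that have a probe set (a group of probes read as 1 value) naming that gene alone. Each was read from whichever of its probe sets had the highest average. Livers came from male C57BL/6N mice of 8 to 10 weeks that had received 1 intraperitoneal injection of carbon tetrachloride (CCl4), a solvent that damages the hepatocytes that metabolise it, at 1.6 g per kg body weight in olive oil. They were taken 2 and 8 h and 1, 2, 4, 6 and 8 d later (5 arrays each) and 16 d later (6 arrays), against 5 arrays of untreated mice, which makes 46 arrays in 9 groups. The control arrays carry the treatment label CCL4 with no time, and were taken as untreated because their titles say ctrl and the series' design calls the control livers untreated. No oil injection is described for them, so CCl4, the oil and the handling cannot be told apart in any comparison with control.

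Mitogen-activated protein kinases (MAPK: ERK, JNK and p38) carry growth and stress signals to the nucleus, where they switch on immediate early genes within minutes to hours. Some of those genes encode the brakes of the same pathway. Dual-specificity phosphatases (Dusp) remove the activating phosphates from the kinases, and Zfp36 (tristetraprolin) binds AU-rich elements in short-lived mRNAs and recruits the deadenylase that starts their decay. In injured or resected liver such genes are known among the earliest to be induced.

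At 2 h the tested genes were all called higher than in control, from 1.23-fold (Dusp8) to 19.1-fold (Gadd45g), and 7 of them by at least 2-fold. The calls of Dusp8 and Ier5 were the least secure. Each was lost when a single array was left out, and another probe set of each gene was not called. The later courses of the tested genes differed. Zfp36, Ier2 and Gadd45b fell by 8 h, and Ier2 was higher than control again at 2 d (1.65-fold). Dusp6 and Gadd45g also fell from 2 h to 8 h, but both were still called higher than control at 8 h and 1 d, and Dusp6 at 2 d. Dusp1 was called higher until 1 d, and its fall from 2 h to 8 h was not called. Ier3 had its highest mean at 1 d, and Ier5, by 1 probe set, stayed at similar means from 8 h to 2 d. From 4 d on none was called different from control. Gadd45g then scattered widely between arrays, most of which lay above all controls from 6 d on.

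**Figure D1:**
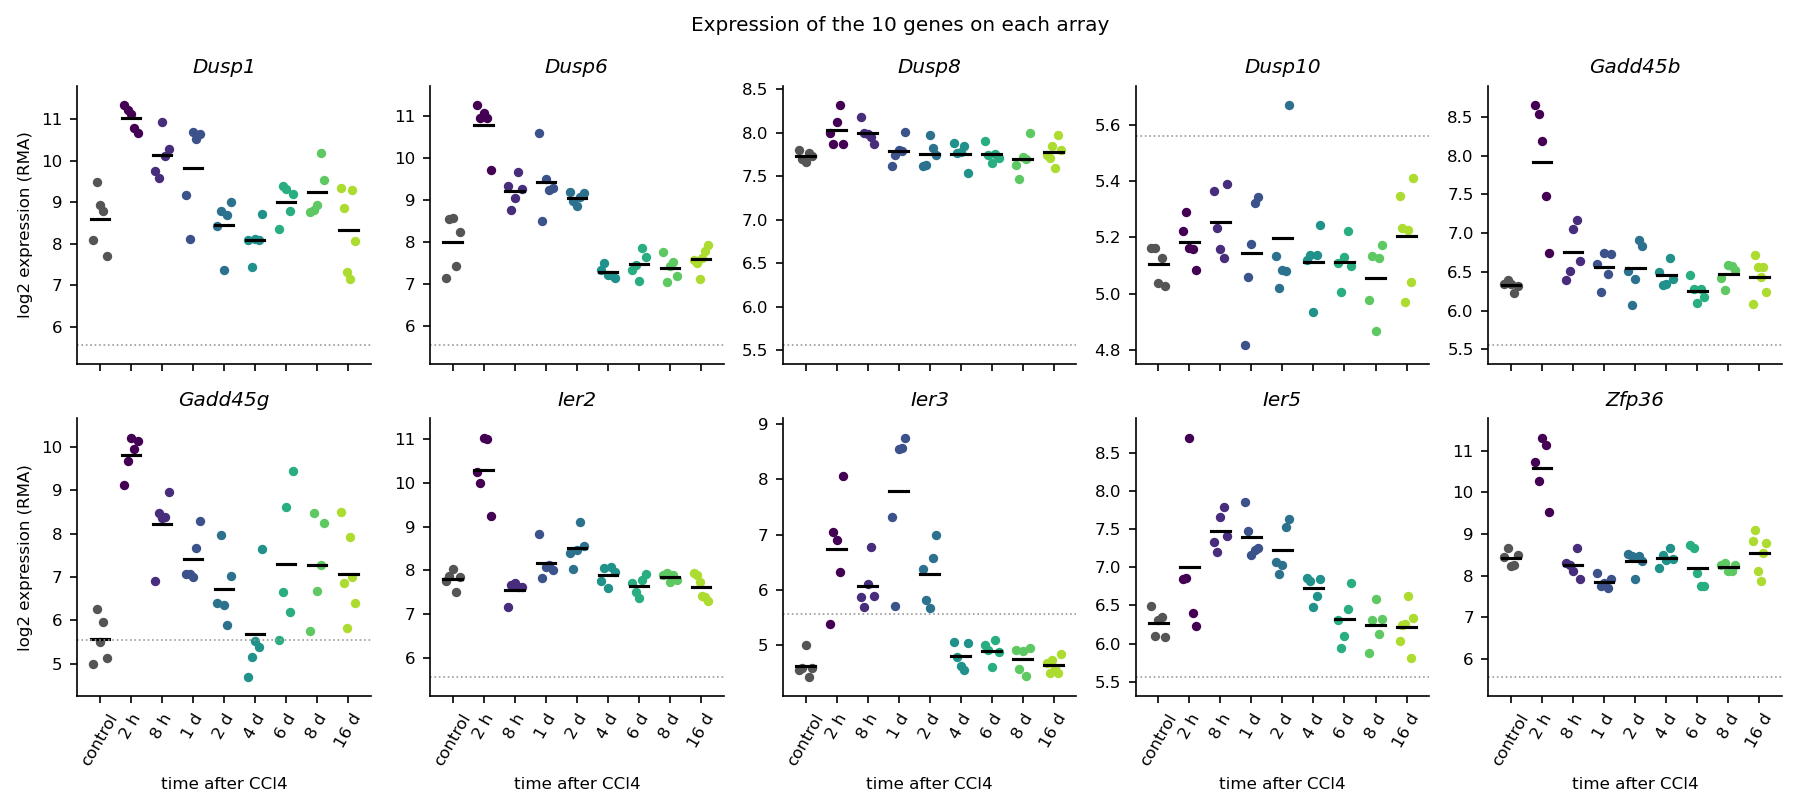
Log2 expression (vertical axis, RMA values, a separate scale for each gene) of the 10 genes on each of the 46 arrays, by group from control through 2 h to 16 d (horizontal axis). Points are arrays, black bars are group means and the dotted line is the median of all deposited values (5.56). Zfp36 and Ier2 have their highest means at 2 h, and Ier2 is above control again at 2 d. Ier3 has its highest mean at 1 d, and Gadd45g is spread between 5.54 and 9.44 at 6 d.

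Sequences upstream of the start are shown for the 5 genes in which a searched motif was found, since these genes rose together at 2 h. RefSeq promoters (build GRCm38.p6) matched 9 of the 10 genes, and Ier2 is named only. The 7 motifs searched on both strands, from 250 bases before to 50 bases after the start, were the CArG box, the cAMP response element TGACGTCA, the short element TGACG that it contains, the AP-1 site TGANTCA, the heat shock element GAANNTTC, the E-box CACGTG and the TATA box TATAAA. Capitals mark motifs in the 150 bases before the start, 5′ to 3′ on the gene's strand.
Zfp36, chr7:28379229-28379378, minus strand: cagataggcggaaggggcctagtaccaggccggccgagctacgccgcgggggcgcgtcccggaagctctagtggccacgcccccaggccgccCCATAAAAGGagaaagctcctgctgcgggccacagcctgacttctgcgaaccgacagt
Dusp1, chr17:26508473-26508622, minus strand: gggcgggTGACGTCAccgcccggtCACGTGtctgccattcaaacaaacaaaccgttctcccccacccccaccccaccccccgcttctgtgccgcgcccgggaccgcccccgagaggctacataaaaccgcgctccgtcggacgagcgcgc
Dusp8, chr7:142095285-142095434, minus strand: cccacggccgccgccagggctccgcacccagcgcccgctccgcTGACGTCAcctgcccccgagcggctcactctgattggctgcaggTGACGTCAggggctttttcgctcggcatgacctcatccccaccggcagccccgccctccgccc
Gadd45b, chr10:80929941-80930090, plus strand: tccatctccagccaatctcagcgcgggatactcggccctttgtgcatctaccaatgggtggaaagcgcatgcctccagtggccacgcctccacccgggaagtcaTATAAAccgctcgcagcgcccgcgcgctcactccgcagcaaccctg
Gadd45g, chr13:51846525-51846674, plus strand: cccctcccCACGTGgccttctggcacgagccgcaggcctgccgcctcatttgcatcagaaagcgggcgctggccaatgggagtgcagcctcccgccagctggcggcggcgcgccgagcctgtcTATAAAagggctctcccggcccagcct

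A CArG box, the binding motif of serum response factor, lay 58 to 49 bases before the Zfp36 start and in 1 of the 9 promoters, against 1.63% of all 32851 mouse promoters in the table. The cAMP response element was in 2 of 9 (Dusp1 and, at 2 places, Dusp8), against 1.79%. The E-box was in 3 of 9 (Dusp1, Gadd45b and Gadd45g), against 7.15%, and TATAAA in 2 of 9 (both Gadd45 genes), against 13.6%. The short element was in 2 of 9 (Dusp1 and Dusp8), against 20.8%. The AP-1 site and the heat shock element were in 0 of 9, against 7.81% and 7.86%. No searched motif was found in the windows of Dusp6, Dusp10, Ier3 and Ier5. Such matches describe letters only and show neither binding nor control.

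The tests were limma fits across all 13239 genes whose probe set exceeded the median of all deposited values on at least 5 arrays, and a gene was called where its adjusted p was under 0.05. Of the 10 genes 9 passed that filter. Ier3 passed it only through arrays from 2 h to 2 d, and Dusp10 did not pass. Values are log2 levels, and folds are differences of log2 group means turned to a ratio. The medians of the arrays lay between 5.48 and 5.63. In a tissue sample, fewer cells of a type and less RNA per cell cannot be told apart. All 7 hepatocyte markers with a probe set were tested, and 6 of them exceeded that median on every array. None passed the test at 2 h (median log2 fold change -0.01), and 2 were lower at 8 h (28.6%, near the 24.2% of all genes). At 1 d 5 were lower (71.4%, against 25.1% of all genes). Among them were Cyp2e1, which encodes the enzyme that activates CCl4, by 3.14-fold and Ass1 of the urea cycle by 1.53-fold. The Gapdh value of the 3′ minus the 5′ control probe set, a measure of RNA quality, had a lower median after CCl4 (0.158 at 2 h and 0.112 at 1 d, against 0.352 in control), at -0.06 to 0.30 at 2 h and 0.09 to 0.31 at 1 d, against 0.27 to 0.43 in control. With that value as a covariate the count of genes higher than control stayed at 9 at 2 h and was 3 instead of 5 at 1 d. Since the value overlapped little between control and these times, that fit cannot tell RNA quality apart from the time after CCl4. Markers of other liver cells were read against all genes. Of those, 19.9% were lower and 6.41% higher at 2 h, and 24.2% and 17.7% at 8 h. Sinusoidal endothelial markers were lower in 5 (71.4%) and higher in 1 (14.3%) of 7 tested both at 2 h and at 8 h (median log2 fold changes -0.29 and -0.35). At 2 h 0 of 5 tested monocyte and macrophage markers and 0 of 7 neutrophil markers passed the limma test. Kupffer cell markers were lower in 2 of 8 at 2 h (25%, near the share of all genes) and in 6 of 8 at 8 h (75%). At 2 d 21.1% of all genes were higher and 18.9% lower. Kupffer cell markers and stellate cell and myofibroblast markers were then each higher in 5 of 8 (62.5%) and lower in 0. Monocyte and macrophage markers were higher in 3 of 5 (60%) and lower in 0. Sinusoidal endothelial markers were higher in 3 (42.9%) and lower in 1 (14.3%) of 7, and neutrophil markers in 2 of 7 each way (28.6%). The part of these differences in the results on the 10 genes was not tested.

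Against control, 9 of 9 tested genes were higher and 0 lower at 2 h, where 6.41% of all genes tested were called higher and 19.9% lower. At 8 h 6 were higher and 0 lower, against 17.7% higher and 24.2% lower of all genes. At 1 d 5 were higher and 1 lower, against 25% and 25.1% of all genes. At 2 d 4 were higher and 0 lower, against 21.1% and 18.9% of all genes. Without Ier3, which passed the filter only where it was high, the counts of higher genes were 8, 5, 4 and 3 of 8. The share of the 9 genes called higher exceeded the background most at 2 h and lay nearest to it at 2 d. Because the genes were chosen with earlier results of these data known, these shares are a description and no test of the set.
The median log2 fold change of the 9 was 2.17, 1.22, 1.13 and 0.72 at these 4 times, beside -0.03, -0.04, -0.04 and -0.03 over all genes. From 4 d to 16 d 0 of the 9 were called in either direction by limma. The background was 4.74% higher and 2.21% lower at 4 d, 0.0227% and 0% at 6 d, 0.068% and 0.0755% at 8 d, and 0.415% and 1.1% at 16 d. Those late counts of 0 are therefore close to what most genes showed. The comparisons with control share the same 5 control arrays and are not independent of each other.

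**Figure D2:**
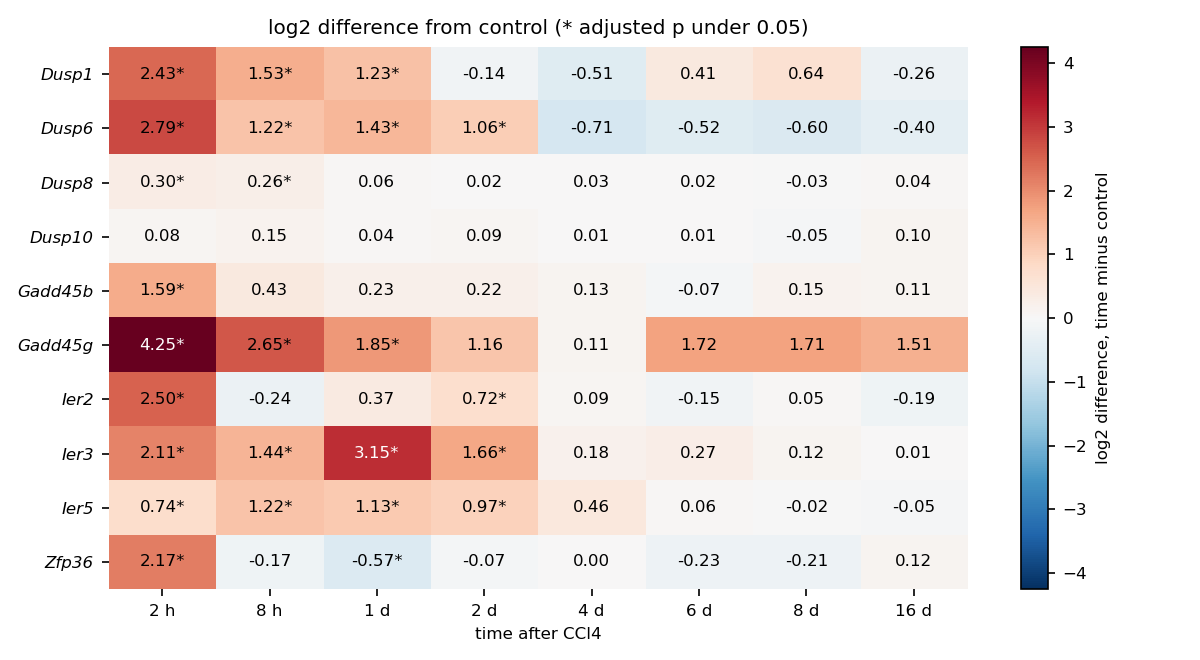
Difference of the group mean from the control mean (log2, colour and printed number) for each gene (rows) at each time after CCl4 (columns, 2 h to 16 d). Asterisks mark adjusted p values under 0.05 in the limma fit; Dusp10 was not tested. The 2 h column holds calls for all 9 tested genes, and the columns from 4 d hold none.

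Dusp1 (probe set 1448830_at) encodes a nuclear phosphatase that acts on p38, JNK and ERK. Its log2 levels at 2 h were 11.34, 11.22, 11.12, 10.78 and 10.68, against 8.08, 9.48, 8.94, 8.78 and 7.71 in control. Every 2 h array stood above every control array, and the 2 h arrays were closer together than the control arrays (SD 0.29 and 0.71). The difference was 2.43 ± 0.42 (SE; limma adjusted p = 3.2e-05), or 5.38-fold. Levels at 8 h were 9.76, 9.58, 10.93, 10.12 and 10.29, again all above control (2.90-fold, adjusted p = 0.0025). At 1 d they read 9.17, 8.11, 10.69, 10.53 and 10.64, where arrays 1 and 2 lay within the control range and the other 3 above it. That call (2.35-fold, adjusted p = 0.0133) was lost without array 3 at 1 d (adjusted p = 0.0532), without control array 5 (0.0528), in a fit of both groups alone (0.0724) and with the Gapdh covariate (0.0732). At 2 d the mean was 8.46 ± 0.65 (SD, n = 5), 2.59-fold lower than at 1 d (adjusted p = 0.00918), and from then on it overlapped control, with medians of 8.70, 8.09, 9.20, 8.92 and 8.46 at 2, 4, 6, 8 and 16 d. The 16 d arrays ranged from 7.15 to 9.35, beside 7.71 to 9.48 in control.

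Dusp6 (1415834_at) encodes a cytoplasmic phosphatase selective for ERK, and its transcript is itself induced by ERK signalling. Its 2 h levels were 11.25, 10.94, 11.06, 10.95 and 9.72, against 7.15, 8.56, 8.56, 7.44 and 8.24 in control. Array 5 lay more than 1 log2 unit below the other 2 h arrays, but above all controls. The difference was 2.79 ± 0.26 (adjusted p = 1.03e-10), or 6.94-fold. At 8 h the arrays read 9.33, 8.77, 9.04, 9.67 and 9.26, at 1 d 10.60, 8.50, 9.48, 9.23 and 9.27, and at 2 d 9.19, 8.97, 8.86, 9.06 and 9.16. These 3 times formed a plateau, with every array above control except array 2 at 1 d. The folds over control were 2.34, 2.69 and 2.08 (adjusted p = 1.71e-04, 1.67e-05 and 0.00142). Dusp6 then fell by 1.77 log2 units between 2 d and 4 d (3.40-fold, adjusted p = 1.46e-06), and no 4 d array reached a 2 d array. At 4 d the arrays read 7.34, 7.50, 7.21, 7.22 and 7.14, with 4 in the lower part of the control range and the last just below it. That level, -0.71 ± 0.26 against control, was not called (adjusted p = 0.102), but it was called lower without control array 1 (adjusted p = 0.0247) and with array weights (0.0176). At 6, 8 and 16 d the means stayed 0.52, 0.60 and 0.40 log2 units under control, and none was called (adjusted p = 0.733, 0.422 and 0.394).

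Dusp8 and Dusp10 encode phosphatases that prefer JNK and p38. The Dusp8 probe set with the highest mean (1428864_at) read 8.00, 7.87, 8.12, 8.32 and 7.87 at 2 h, against 7.80, 7.70, 7.66, 7.77 and 7.74 in control. All 2 h arrays were above all control arrays by a small margin, 0.30 ± 0.09 (1.23-fold, adjusted p = 0.00926). The 8 h arrays lay at 7.87 to 8.19, also above control (1.20-fold, adjusted p = 0.0135). Both calls were near the threshold: the first was lost without array 4 at 2 h (adjusted p = 0.0589), the second without array 1 at 8 h (0.0546) and after quantile normalization (0.0654).
A second Dusp8 probe set (1418714_at), with a lower mean level, differed by 1.54 ± 0.16 at 2 h and 1.06 ± 0.16 at 8 h (adjusted p = 1.87e-09 and 6.52e-07), and by 0.39 at 1 d (adjusted p = 0.0438). The third (1447346_s_at) differed by 0.05 at 2 h (adjusted p = 0.63), -0.09 at 8 h and -0.29 ± 0.07 at 2 d (adjusted p = 0.00082). The size and, after 2 h, the direction for Dusp8 thus depended on the probe set. Dusp10 (1417163_at) had group means between 5.06 and 5.25 and exceeded the median of all values on 1 array, at 2 d (5.67). Its 2 h arrays read 5.22, 5.29, 5.16, 5.16 and 5.08, against 5.16, 5.16, 5.04, 5.13 and 5.03 in control, which overlap, and no test was made.

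**Figure D3:**
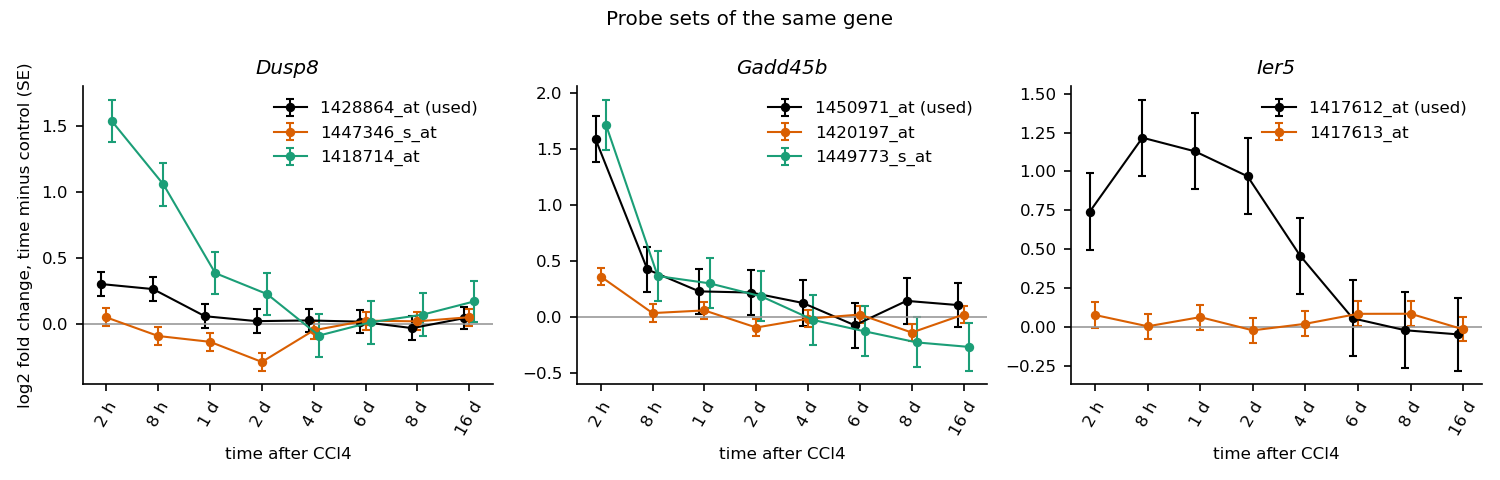
Log2 fold change over control (vertical axis; points are estimates and bars standard errors of the limma fit over all probe sets naming 1 gene) at each time after CCl4 (horizontal axis) for the probe sets of Dusp8, Gadd45b and Ier5 that passed the filter. Black marks the probe set used. For Dusp8 the 2 h estimates are 0.30, 0.05 and 1.54, for Gadd45b 1.59, 0.36 and 1.72, and the second Ier5 probe set stays near 0.

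Gadd45 proteins bind the kinase MAP3K4 and activate p38 and JNK. Gadd45b also binds and inhibits the JNK kinase MKK7. Gadd45b (1450971_at) read 8.65, 8.53, 8.18, 7.48 and 6.74 at 2 h, against 6.34, 6.40, 6.34, 6.23 and 6.32 in control. The 2 h arrays spread over nearly 2 log2 units, and the lowest of them, array 5, still lay above all controls, which were tightly grouped (SD 0.06). The difference was 1.59 ± 0.20 (3.01-fold, adjusted p = 1.54e-07). By 8 h, at 6.40, 6.51, 7.05, 7.17 and 6.63, it had fallen 2.24-fold from 2 h (adjusted p = 1.24e-05). The 8 h arrays were all just above control, by 0.43 ± 0.20 (adjusted p = 0.0878), which was called without array 1 at 8 h (0.0485), with array weights (0.0488), with the Gapdh covariate (0.019) and in a fit of both groups alone (0.0169). Means from 1 d to 16 d were 6.25 to 6.56, beside 6.33 in control, with no call. The 2 other probe sets rose by 1.72 ± 0.22 and 0.36 ± 0.08 at 2 h (adjusted p = 2.39e-07 and 4.83e-04).

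Gadd45g (1453851_a_at) showed the widest excursion of the 10 genes. It read 9.13, 9.67, 10.22, 9.96 and 10.13 at 2 h, against 4.99, 6.26, 5.50, 5.97 and 5.13 in control. The lowest 2 h array stood almost 3 log2 units above the highest control array. The difference was 4.25 ± 0.57, or 19.1-fold (adjusted p = 5.37e-07). The Gadd45g control mean of 5.57 lay close to the median of all values (5.56). It stood at percentile 7.74 of the control means of all tested genes, so these folds are set over a low control level. At 8 h the arrays read 6.92, 8.47, 8.36, 8.38 and 8.97 (6.27-fold, adjusted p = 1.87e-04), and at 1 d 7.06, 7.08, 6.99, 7.68 and 8.30 (3.61-fold, adjusted p = 0.00677). No array at either time overlapped control, though the 1 d call was lost with the Gapdh covariate (adjusted p = 0.0557). The fall of 1.60 between 2 h and 8 h was called (adjusted p = 0.0258), and it was lost without array 3 or 5 at 2 h, without array 1 at 8 h and with array weights (adjusted p = 0.0526, 0.0533, 0.0871 and 0.0555).
At 2 d the arrays were at 6.41, 7.98, 6.36, 5.90 and 7.03, and the difference of 1.16 ± 0.57 was not called (adjusted p = 0.101), except in a fit of both groups alone (0.0224). At 4 d 4 arrays lay between 4.69 and 5.53 and array 5 at 7.64. At 6 d the arrays read 5.54, 6.66, 8.61, 6.20 and 9.44, and at 8 d 5.77, 8.47, 6.67, 7.27 and 8.24. At 16 d the lowest, median and highest were 5.81, 6.92 and 8.50. At 6, 8 and 16 d 3 of 5, 4 of 5 and 5 of 6 arrays lay above all controls, some of them near the 8 h level. The other arrays of these times were within the control range. The SDs were 1.66, 1.12 and 0.99, beside 0.54 in control. The differences from control, 1.72, 1.71 and 1.51, were not called (adjusted p = 0.471, 0.244 and 0.136). The step from 4 d to 6 d, 1.61, was called in 5 of the alternatives tried: without array 5 at 4 d (adjusted p = 0.0149), without array 1 or 4 at 6 d (0.0191 and 0.0389), with array weights (0.0303) and with a replicate block (0.0358).

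Ier2, Ier3 and Ier5 are immediate early genes, of which Ier2 and Ier5 encode related proteins and Ier3 does not. The Ier2 protein is found in the nucleus. Ier2 (1416442_at) read 10.25, 10.00, 11.04, 11.01 and 9.23 at 2 h, against 7.75, 7.86, 8.03, 7.51 and 7.85 in control. All 2 h arrays lay more than 1 log2 unit above all controls, array 5 lowest. The difference was 2.50 ± 0.21 (5.68-fold, adjusted p = 5.12e-12). By 8 h it read 7.17, 7.66, 7.72, 7.63 and 7.62, within or just below the control range, after a 6.70-fold fall from 2 h (adjusted p = 1.79e-13). At 2 d the arrays read 8.41, 8.04, 8.47, 9.11 and 8.57, all above control again, if narrowly (1.65-fold, adjusted p = 0.00617). The step up from 8 h to 1 d, 0.61 ± 0.21, was called (adjusted p = 0.0227) and was lost in 5 alternatives, among them without array 1 at 1 d (0.107) or at 8 h (0.0821). The step down from 2 d to 4 d, 0.63 (adjusted p = 0.021), was lost without array 4 at 2 d (0.096), without array 3 at 4 d (0.0631) and after quantile normalization (0.0577). From 4 d to 16 d its means were 7.61 to 7.89, beside 7.80 in control.

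Ier3 (IEX-1) encodes an ERK substrate that affects cell survival. Ier3 (1419647_a_at) read 5.39, 7.04, 6.90, 6.32 and 8.06 at 2 h, against 4.56, 4.59, 5.00, 4.42 and 4.59 in control, where no array reached the median of all values. The folds given for Ier3 are therefore set over a control level in the low part of the array's scale. Array 5, the lowest 2 h array for Dusp1, Dusp6, Gadd45b, Ier2, Ier5 and Zfp36, was the highest for Ier3. The 2 h difference was 2.11 ± 0.36 (4.32-fold, adjusted p = 2.54e-05). The 8 h arrays lay between 5.69 and 6.77 (2.71-fold, adjusted p = 9.9e-04), which was not called with the Gapdh covariate (0.0934).
At 1 d they read 7.32, 5.72, 8.56, 8.57 and 8.76. Array 2 was nearly 3 log2 units below the 3 highest, yet above all controls. The difference of 3.15 ± 0.36 (8.89-fold, adjusted p = 1.1e-09) was the largest of Ier3 among the 8 times, and the step up from 8 h, 1.72 ± 0.36, was called (adjusted p = 2.03e-04). At 2 d the arrays read 6.38, 5.83, 5.67, 6.57 and 7.00 (3.16-fold over control, adjusted p = 2.81e-04). At 4 d all 5 lay between 4.55 and 5.06, below every 2 d array (2.78-fold lower than at 2 d, adjusted p = 0.00152), and the means stayed at 4.64 to 4.90 to 16 d, beside 4.63 in control.
Some markers of blood-derived cells also differed at 1 d. Of 5 monocyte and macrophage markers tested 2 were higher and 0 lower (Cd68 by 5.93-fold, Lyz2 by 1.92-fold), and the mean log2 level of the 6 markers with a probe set lay at 6.78 to 7.14 at 1 d, against 6.19 to 6.34 in control. Of 7 neutrophil markers 2 were higher (S100a8 by 9.51-fold, S100a9 by 4.29-fold) and 2 lower, which is 28.6% each way, near the 25% and 25.1% of all genes, and their median log2 fold change was -0.03. Their mean level lay at 6.19 to 7.05 at 1 d, against 5.89 to 6.11 in control. At 4 d the mean level of the macrophage markers was 7.11 to 7.63, and 2 of 5 Ier3 arrays lay just above the highest control array. None of these markers stayed below the median of all values on all arrays, and their part in the Ier3 result was not tested.

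Ier5 encodes a protein that in human cells binds protein phosphatase 2A and acts on the heat shock factor HSF1. Ier5 (1417612_at) read 6.84, 6.86, 8.70, 6.40 and 6.24 at 2 h, against 6.49, 6.09, 6.31, 6.35 and 6.08 in control. Array 3 stood nearly 2 log2 units above the next, and arrays 4 and 5 were within the control range. The 2 h difference of 0.74 ± 0.25 (adjusted p = 0.0218) therefore rested on array 3, without which it was 0.32 (adjusted p = 0.187). It was also lost in a fit of both groups alone (0.136) and without control array 5 (0.0529).
At 8 h the arrays read 7.34, 7.20, 7.66, 7.79 and 7.41, at 1 d 7.85, 7.48, 7.16, 7.23 and 7.25, and at 2 d 7.07, 6.92, 7.03, 7.52 and 7.63. All 15 arrays lay above all controls. The folds were 2.32, 2.19 and 1.96 (adjusted p = 6.89e-05, 1.77e-04 and 0.00166). At 4 d 4 of 5 arrays were still above the control range, at a mean of 6.72 ± 0.17 beside 6.26 ± 0.18 (SD, n = 5 each), and the 0.46 difference was not called (adjusted p = 0.317) except in a fit of both groups alone (0.00808). Means at 6, 8 and 16 d were 6.32, 6.24 and 6.22. A second probe set (1417613_at) differed from control by 0.08, 0.00, 0.06 and -0.02 at 2 h, 8 h, 1 d and 2 d (adjusted p = 0.528 to 0.975), so the Ier5 result rested on 1 probe set.

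Zfp36 (1452519_a_at) read 10.72, 10.27, 11.32, 11.13 and 9.52 at 2 h, against 8.45, 8.67, 8.23, 8.26 and 8.50 in control. All 2 h arrays lay above all controls, and array 5 was lowest, as for Ier2 and Dusp6. The difference was 2.17 ± 0.22 (4.50-fold, adjusted p = 9.97e-10). At 8 h the arrays read 8.31, 8.26, 8.11, 8.66 and 7.92, a 5.08-fold fall from 2 h (adjusted p = 4.76e-11) to a level that overlapped control. At 1 d they read 8.05, 7.76, 7.81, 7.71 and 7.92, all below all controls. That difference, -0.57 ± 0.22 (1.49-fold lower, adjusted p = 0.0302), was the 1 call in the lower direction among the 10 genes. It was lost in 6 of 24 alternatives, with adjusted p values of 0.0509 without array 2 and 0.0606 without array 4 at 1 d, 0.0736 and 0.0514 without control array 2 or 5, 0.0527 without both arrays 1 and 2 at 1 d, and 0.207 with the Gapdh covariate. From 2 d on it overlapped control, with medians of 8.47, 8.40, 8.06, 8.25 and 8.67 at 2, 4, 6, 8 and 16 d.

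Between neighbouring times, 0 of the 9 genes were called higher and 5 lower from 2 h to 8 h (Dusp6, Gadd45b, Gadd45g, Ier2 and Zfp36), where 20.4% and 15.4% of all genes were called higher and lower. From 8 h to 1 d 2 were higher (Ier2 and Ier3) and 0 lower, against 20.8% and 10.9% of all genes. From 1 d to 2 d 0 were higher and 2 lower (Dusp1 and Ier3), against 17.4% and 15% of all genes. From 2 d to 4 d 0 were higher and 3 lower (Dusp6, Ier2 and Ier3), against 13.4% and 17.9% of all genes. From 4 d to 6 d 0 were called in either direction, against 3.51% higher and 7.3% lower. From 2 h to 8 h, 5 of 9 genes fell, against 15.4% of all genes, while the counts of 2 and 3 at the later steps are too few to set apart from the background.

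Related genes were compared within each array by the difference of their log2 values, since only the change of such a difference between groups has a meaning when probe sets differ. In 4 pairs and 8 times, 32 two-sided exact permutation tests were made, and 8 had an adjusted p under 0.05. The smallest p that 5 arrays against 5 allow is 0.00794, and each of the 8 had it (adjusted p = 0.0318). None of the 8 was called without control array 1: 5 of them kept that smallest p, and the lowest adjusted p in the exact permutation tests was then 0.0508. In all 8 the 5 arrays of the time still lay beyond all remaining controls. With so few arrays the smallest possible p limits the adjusted p, so this loss does not show that the differences rested on that array.
Gadd45g rose more than Gadd45b. Gadd45b minus Gadd45g was -1.91 ± 1.14 at 2 h, -1.46 ± 0.70 at 8 h and -0.87 ± 0.54 at 1 d, against 0.75 ± 0.54 in control (SD, n = 5 each), in all 5 arrays of each time beyond all controls (exact permutation tests). Ier2 and Ier5 diverged in opposite senses: Ier2 minus Ier5 was 3.30 ± 0.83 at 2 h, 0.08 ± 0.26 at 8 h and 0.78 ± 0.25 at 1 d, against 1.54 ± 0.30 in control. With the mean of all probe sets of a gene, the 1 d difference for this pair was no longer called (-0.14, adjusted p = 0.546 in the permutation test).
Zfp36 was compared with Zfp36l1, a paralogue that also binds AU-rich elements and that rose 2.99-fold at 2 h (adjusted p = 1.14e-06). Zfp36 minus Zfp36l1 was -2.93 ± 0.34 at 1 d and -2.55 ± 0.38 at 8 d, against -1.62 ± 0.31 in control. At 2 h it was -1.03 ± 0.64 and not called (exact permutation adjusted p = 0.165). Dusp1 minus Dusp6 was not called at any time. At 2 h it was 0.24 ± 0.43, against 0.61 ± 0.72 in control (exact permutation adjusted p = 0.457), and at 8 d it was 1.85 ± 0.66 (exact permutation adjusted p = 0.0509).

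**Figure D4:**
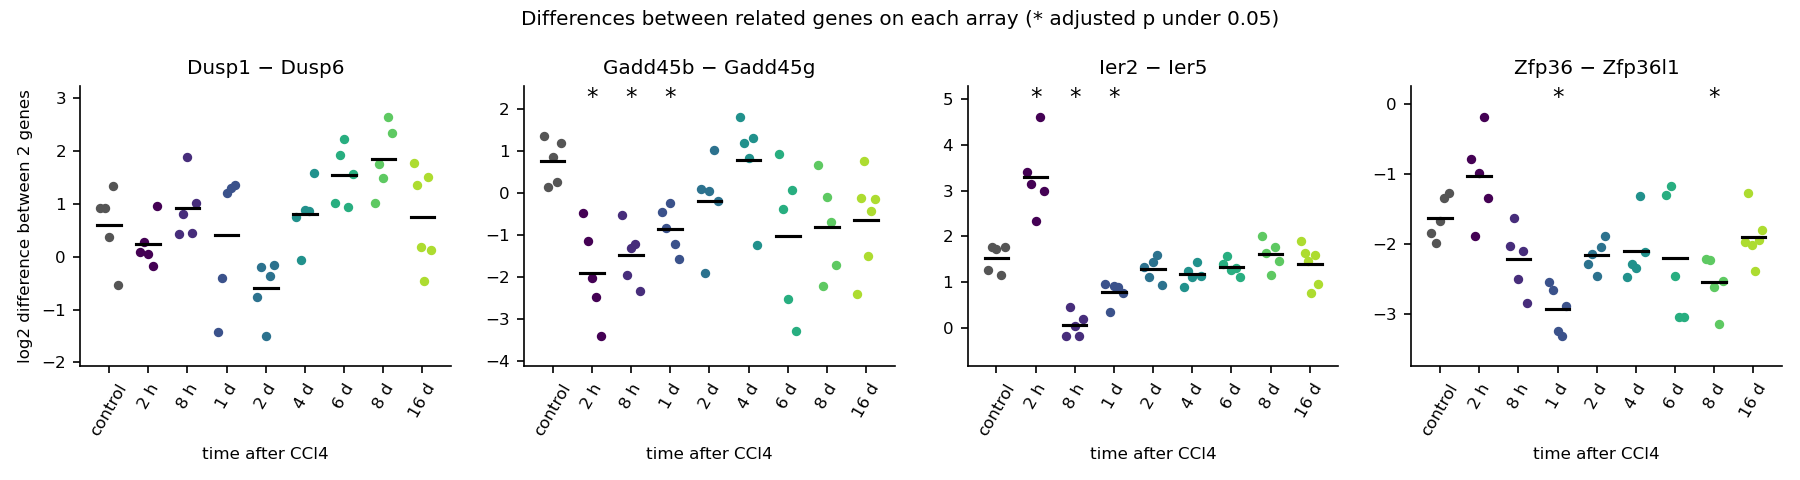
Difference of the log2 values of 2 related genes on each array (vertical axis, a separate scale for each pair) by group from control to 16 d (horizontal axis). Points are arrays, black bars are group means, and asterisks mark exact permutation tests against control with adjusted p under 0.05. Ier2 minus Ier5 lies above control at 2 h and below it at 8 h and 1 d, and Gadd45b minus Gadd45g lies below control at 2 h, 8 h and 1 d.

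The other genes of these pathways had smaller median changes. Their shares of called genes are given as percentages of the genes tested in a list, to be read against 6.41%, 17.7%, 25% and 21.1% higher and 19.9%, 24.2%, 25.1% and 18.9% lower among all genes at 2 h, 8 h, 1 d and 2 d. Of 23 tested further MAPK phosphatases and feedback inhibitors (27 listed), 7, 6, 10 and 7 were higher (30.4%, 26.1%, 43.5% and 30.4%) and 3, 1, 1 and 2 lower (13%, 4.35%, 4.35% and 8.7%) at these 4 times, with median log2 fold changes of 0.10, 0.12, 0.04 and 0.08. The largest rise in this list was that of Gadd45a, by 29.2-fold at 2 h, 12.8-fold at 8 h and 4.42-fold at 1 d (adjusted p = 1.68e-12, 3.35e-10 and 1.49e-05). Gadd45a is the p53-regulated member of the Gadd45 family, whose proteins activate p38 and JNK. It therefore stands apart from the phosphatases and inhibitors in the list. Dusp4, a nuclear phosphatase, rose 6.47-fold at 8 h and 5.15-fold at 1 d (adjusted p = 1.3e-08 and 1.76e-07). Errfi1, an inhibitor of the EGF receptor, rose 2.31-fold at 2 h (adjusted p = 8.7e-04).
Among 26 tested kinases and upstream genes of the cascade (36 listed, 29 with a probe set), 3, 9, 9 and 4 were higher (11.5%, 34.6%, 34.6% and 15.4%) and 7, 3, 4 and 2 lower (26.9%, 11.5%, 15.4% and 7.69%) at the same times, at medians of -0.05, 0.05, 0.12 and 0.01. Map3k5 (ASK1), a stress kinase upstream of JNK and p38, rose 2.04-fold at 2 h (adjusted p = 8.27e-08), while the receptor Met fell by 0.75 log2 units (adjusted p = 7.25e-06). Grb2, an adaptor, and Mknk2, a kinase downstream of ERK and p38, rose 1.90-fold and 1.98-fold at 8 h (adjusted p = 4.49e-08 and 5.53e-04). Mknk2 was 1.97-fold higher at 1 d (adjusted p = 5.39e-04), and Egfr, the EGF receptor, fell by 1.56 log2 units (2.95-fold lower, adjusted p = 8.24e-04).

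Of 43 tested mRNA decay factors (45 listed), 6, 15, 16 and 13 were higher (14%, 34.9%, 37.2% and 30.2%) and 9, 7, 7 and 4 lower (20.9%, 16.3%, 16.3% and 9.3%) in the same order of times, at medians of -0.01, 0.03, 0.06 and 0.08. Btg2, which binds the CCR4-NOT deadenylase and promotes deadenylation, rose 16.6-fold at 2 h and 2.67-fold at 8 h (adjusted p = 1.42e-14 and 3.81e-05). Its relative Tob1 was 2.52-fold lower at 8 h (adjusted p = 1.49e-07), and Btg1 and the exosome nuclease Dis3 were 2.48-fold and 1.91-fold higher at 1 d (adjusted p = 6.38e-06 and 2.31e-08).
Of 15 tested transcripts with AU-rich elements known as Zfp36 targets (22 listed, Dusp1 and Ier3 among them), 7, 8, 7 and 5 were higher (46.7%, 53.3%, 46.7% and 33.3%) and 0, 1, 1 and 2 lower (0%, 6.67%, 6.67% and 13.3%) at these times, at medians of 0.25, 0.60, 0.54 and 0.03. Fos rose 44.6-fold and Plk3 8.73-fold at 2 h (adjusted p = 2.69e-14 and 5.12e-12), the time of the Zfp36 peak. The chemokine Cxcl2 and the transcription factor Myc rose 10.8-fold and 7.83-fold at 8 h (adjusted p = 3.41e-10 and 3.62e-10), when Zfp36 was back at the control level. Fos was then 0.43 log2 units above control and not called (limma adjusted p = 0.397). From 2 h to 8 h 4 of the 15 were called higher and 5 lower (26.7% and 33.3%, against 20.4% and 15.4% of all genes). At 1 d Myc was 4.31-fold and Fos 3.76-fold higher (adjusted p = 4.95e-07 and 5.3e-05). Zfp36 was then called below control, a call lost in 6 of 24 alternatives. Any bearing of the Zfp36 level on these transcripts was not tested.

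**Figure D5:**
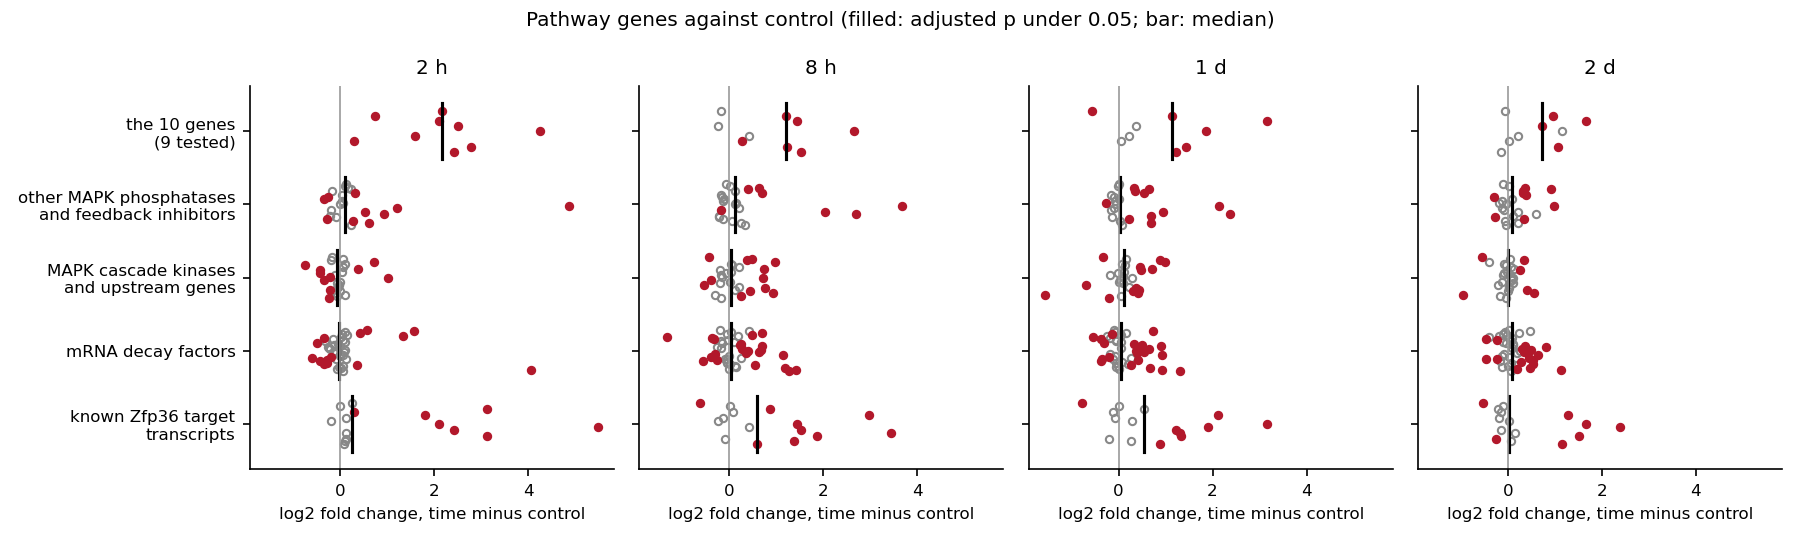
Log2 fold change over control (horizontal axis) of the tested genes of each list (vertical axis) at 2 h, 8 h, 1 d and 2 d (panels). Each point is a gene, filled where its limma adjusted p is under 0.05, and black bars are medians. The median of the 9 tested genes is 2.17, 1.22, 1.13 and 0.72, while the medians of the other MAPK phosphatases, the kinases and the decay factors stay between -0.05 and 0.12.

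The genes whose profiles over the 46 arrays were most alike are given as a description, since the arrays share their groups. Ier2 followed Fos and Jund (Pearson r = 0.90 for both) and, among the 10 genes, Zfp36 (0.83). Zfp36 was most like Fbxo34 (0.86) and Trib1 (0.86). Gadd45b was most like Btg2 (0.86) and Ddit4 (0.84). Dusp6 was most like Atf3 and Jun (both 0.88), Dusp1 like Jun and Chac1 (both 0.81), and Dusp8 like Neto1 (0.69) and Atf3 (0.68). Thus Fos, Jun, Jund or Atf3, which encode AP-1 factors and a relative, were among the closest for 4 of the 10.
Ier5 was most like Myl12a (0.89) and Cdkn1a (0.88), Ier3 like Lrrc8a and Ccn2 (both 0.82), and Gadd45g like Plk3 (0.80) and Slc25a25 (0.77). Dusp10 had no close match (Usp49, 0.55, and Gdpd1, 0.54). Within the 10 genes the lowest values for the tested genes other than with Dusp10 were those of Zfp36 with Ier5 (0.08) and with Ier3 (0.11).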

How the data were processed

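RNA of mouse livers was measured on Affymetrix arrays after oligo-dT priming and biotin labelling, as the protocols in the labels say. The authors deposited log2 expression values, for which the submitters' processing notes name RMA and oligo 1.52.0. RMA corrects background, quantile-normalizes arrays and summarises probes, so shifts common to most genes are removed. Depth does not apply to arrays, and their number limits the precision. The labels do not say whether the arrays of a group are separate animals, so p-values measure the spread between these samples, which may be technical.

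Of 45101 probe sets 34945 named 1 gene. All 46 arrays entered 1 limma fit (limma 3.58.1, R 4.3.3) of 9 group means with 37 residual degrees of freedom and Benjamini-Hochberg adjustment over 13239 genes within each contrast. The filter was a value over 5.56 on at least 5 arrays. Alternatives covered scaling, filter, probe set choice, array weights, a Gapdh covariate, a replicate block, fits of both groups alone, left-out arrays and, added after seeing the data, each other probe set. The fit was tested on simulated data. Plots were drawn with Python 3.11.15 and matplotlib 3.10.9.

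The genes, pairs and lists were chosen with earlier results of these data known. Named are the 10 genes, for each list the 2 called genes with the largest change at 2 h, 8 h and 1 d, and for each gene the 2 most alike over the 46 arrays. Markers are named where they moved beside a result.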

Additional observations from a re-analysis of the deposited data

Results flagged for a closer look

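In 7 of 90 groups of arrays (10 genes, 9 groups each) 1 array stood apart from the rest by Dixon's criterion, which chance alone meets in about 1 of 20 groups. These were Dusp6 on array 5 at 2 h (9.72, the other arrays at 10.94 to 11.25), Dusp10 on array 5 at 2 d (5.67, the others at 5.02 to 5.13), Gadd45g on array 5 at 4 d (7.64, the others at 4.69 to 5.53), Ier2 on array 1 at 8 h (7.17, the others at 7.62 to 7.72), Ier3 on control array 3 (5.00, the others at 4.42 to 4.59), Ier5 on array 3 at 2 h (8.70, the others at 6.24 to 6.86) and Zfp36 on array 3 at 2 d (7.92, the others at 8.36 to 8.53). The 2 h call of Ier5 was lost without its outlying array.

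Zfp36 was higher than control at 2 h and lower at 1 d, and the direct contrast of 1 d minus 2 h was -2.74 ± 0.22 (SE; limma adjusted p = 1.39e-13).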

How the results depend on the processing

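Across the alternatives tried, 8 to 9 of the 9 tested genes were higher at 2 h (7 under a 2-fold minimum) and 5 to 7 at 8 h. These counts leave out the alternative of each other probe set. By such probe sets Dusp8 (1447346_s_at) and Ier5 (1417613_at) were not called at 2 h (limma adjusted p = 0.63 and 0.528). The remaining Dusp8 probe set and both of Gadd45b were called higher. Other counts moved. At 1 d against control the 5 higher calls became 3 and the 1 lower call 0 with the Gapdh covariate, and the lower call was also 0 under a 2-fold minimum and without arrays 1 and 2 at 1 d; leaving out 1 array gave 0 to 1. At 2 d against control 2 of 4 reached 2-fold. At 4 d against control the higher count was 1 instead of 0 in a fit of both groups alone, and the lower count 1 instead of 0 with array weights and 0 to 1 with 1 array left out. For 8 h minus 2 h the higher count was 1 instead of 0 with array weights and 0 to 1 with 1 array left out. For 1 d minus 8 h the higher count of 2 became 1 under a 2-fold minimum, cyclic loess, quantile normalization and without arrays 1 and 2 at 1 d, with 1 to 2 when 1 array was left out. Its lower count of 0 became 1 under both normalizations, with averaged probe sets, the most variable probe set and a fit of both groups alone, and 0 to 1 with 1 array left out. For 2 d minus 1 d a fit of both groups alone gave 1 higher instead of 0 and 0 lower instead of 2, and leaving out 1 array gave 0 to 1 higher. For 6 d minus 4 d the higher count of 0 became 2 with array weights, 1 in a fit of both groups alone and 1 with a replicate block, and 0 to 1 with 1 array left out. The 8 called pair differences were 0 to 11 with 1 array left out, and 0 only without control array 1. The cause was not tested, beyond fewer arrays or genes where the alternative has them.

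By other probe sets the Dusp8 difference was -0.0900 at 8 h and -0.286 at 2 d, and that of Ier5 at 2 d was -0.0220, each opposite to the value reported. Over all genes at 2 h 848 were higher and 2638 lower, against 1153 and 1899 after quantile normalization, 1238 and 1362 after cyclic loess, and 689 and 2923 with array medians made equal. Equal replicate numbers did not mark pairs (median correlation of deviations 0.00932 over 180 pairs, 40 of them over 0.1; 14 of 46 arrays correlated best with their own number). The replicate block changed 1 of the counts, that of 6 d minus 4 d, and over all genes moved the calls at 16 d to 50 from 200. Only the 16 d group had an array numbered 6, so the block in effect left that array out. The change at 16 d therefore cannot be assigned to blocking alone. Dusp10 and, in control, Ier3 lay below the median of all values, where small differences are hardest to measure on such arrays. The control mean of Gadd45g, 5.57, was close to that median.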
